A study of Mus musculus with 36 samples.

Results

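The genes encoding the protein components of the cytosolic ribosome were followed in a brain region enriched for the suprachiasmatic nucleus (SCN), the site of the central circadian clock of mammals. Genes were taken by name, as Rpl or Rps followed by a number, together with Rpsa, Rplp0, Rplp1, Rplp2 and Fau, leaving out ribosomal S6 kinases and pseudogene symbols. Of 86 such rows, 83 had a mean of at least 1 on the scale described next and are the members described here, out of 24883 rows in the tables. They comprise 46 large-subunit genes, 32 small-subunit genes and 5 paralogs named as "like" genes (Rpl22l1, Rps27l, Rpl36al, Rpl7l1 and Rps4l). Rps4l is kept by its name, although no protein-coding transcript was found for it in the GENCODE annotation used for lengths. The 3 rows under the minimum were Rpl3l at 0.442, Rpl39l at 0.173 and Rpl10l, which was listed at 0. The lowest member was Rpl26 at 22.2, so the minimum separated rows that lay far apart.

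Levels are deposited FPKM (fragments per kilobase of transcript, scaled to the library) rescaled so that each library sums to 1000000 over the rows of both tables, and they are called rescaled FPKM here. Because FPKM is divided by transcript length, levels of different genes are compared per length. The tissue came from adult C57BL/6J mice given normal chow or a high-fat diet for 10 weeks, and it was sampled every 4 h at zeitgeber time (ZT) 0, 4, 8, 12, 16 and 20. There were 3 libraries per diet and time, 18 per diet and 36 altogether. Nothing in the labels ties the libraries of a group to separate animals, so p-values measure the spread between libraries, which may be partly technical. The diets are in separate tables, so diet and any unequal handling of the tables cannot be told apart. In such tissue, fewer cells of a type and less RNA per cell cannot be told apart. The region's markers were above 0 in every library, but the summed SCN marker level (Vip, Avp, Nms, Prok2 and 6 others) ranged from 566 to 2857 rescaled FPKM under chow and from 303 to 4454 under high-fat diet, so libraries differed widely in how much SCN-marker RNA they held.

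Ribosomal proteins assemble with ribosomal RNA into a small subunit, which decodes the mRNA, and a large subunit, which joins amino acids. Most of their mRNAs begin with a short run of pyrimidines, the terminal oligopyrimidine (TOP) motif, through which mTOR signalling controls their translation, so transcript level and protein synthesis need not move together. In the mouse liver their translation follows the daily feeding cycle while the transcripts themselves vary little, and the SCN clock is set mainly by light.

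The annotated start sites of members to which the results below return were read from RefSeq (GRCm38.p6) to show this feature. Each line gives 20 bases before the annotated start and 20 bases from it, with capitals marking the first C followed by at least 4 pyrimidines that begins within 5 bases of the start. Rps6, whose protein is the substrate of S6 kinase (chr4:86857348-86857387, minus strand), Rps27 (chr3:90213629-90213668, minus), Rps24 (chr14:24490658-24490697, plus), Rpl12 (chr2:32961692-32961731, plus) and Rps2 (chr17:24720043-24720082, plus) had such a run. The other annotated start of Rps24 (chr14:24490733-24490772, plus) had none, and it is printed as Rps24 second start. Rps12 (chr10:23787190-23787229, minus), Rpl4 (chr9:64173367-64173406, plus), Rpl7l1 (chr17:46782637-46782676, minus) and Rpl26 (chr11:68901546-68901585, plus) had none that close.
Rps6: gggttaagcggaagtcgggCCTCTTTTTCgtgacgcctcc
Rps27: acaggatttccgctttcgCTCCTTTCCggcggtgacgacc
Rps24: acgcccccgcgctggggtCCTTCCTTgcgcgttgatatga
Rps24 second start: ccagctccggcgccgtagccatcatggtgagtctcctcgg
Rpl12: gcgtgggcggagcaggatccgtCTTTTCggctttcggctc
Rps2: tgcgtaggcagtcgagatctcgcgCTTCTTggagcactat
Rps12: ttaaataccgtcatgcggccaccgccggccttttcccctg
Rpl4: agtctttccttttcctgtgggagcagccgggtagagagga
Rpl7l1: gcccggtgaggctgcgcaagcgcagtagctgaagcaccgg
Rpl26: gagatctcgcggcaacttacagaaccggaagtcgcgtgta

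Start windows were at hand for 62 of the 83 members (73 windows, since some genes have several starts). A C at the annotated start base itself, followed by at least 4 bases C or T, stood in 14 member windows (19.2%) and in 2.51% of all 32851 windows of the table. Allowing the run to begin up to 5 bases either side gave 32 member windows (43.8%) against 18.3% of all windows. In the window from 250 bases before to 50 after the start, CCGGAAG, the core recognised by ETS-type factors, was found on either strand in 35.6% of member windows and 8.86% of all windows. AAGATGGC, the core of the YY1 motif, was found on either strand in 12.3% against 2.75%. A TATAAA on the gene's strand 20 to 40 bases before the start was found in 1.37% against 1.99%. These matches describe the letters in the windows, and the runs depend on how precisely each start is annotated.

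The members made up a large and similar share of rescaled FPKM under both diets, which is per transcript length and not a share of RNA mass. They summed to 9.47% ± 0.897 (SD, n = 18) of rescaled FPKM under chow and to 9.62% ± 1.31 (SD, n = 18) in the high-fat group. The chow libraries ran from 7.54% to 11.1% and the high-fat libraries from 5.53% to 11.9%, so the chow range lay inside the high-fat range. Large-subunit genes held 52.9% of the member sum, small-subunit genes 45.4% and the 5 paralogs 1.70%.

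One library stood apart and is named before any comparison. High-fat ZT 8 replicate 2 had the lowest member share of all 36 libraries (5.53%), against 10.3% and 9.29% in the other two of its group. It held the lowest value of 68 of the 83 members and also the lowest deposited FPKM sum, 302899, in a range that reached 432336. Its ratio of large- to small-subunit sums was 1.33, outside the 1.08 to 1.25 of every other library. Without it the high-fat share was 9.86% ± 0.852 (SD, n = 17) with a lowest value of 8.48%. Results that rest on it are given with and without it, a choice made after its values were seen. At the other end, high-fat ZT 20 replicate 3 held the highest value of 51 members and the highest share (11.9%), and chow ZT 16 replicate 2 was the lowest chow library (7.54%).

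**Figure D1:**
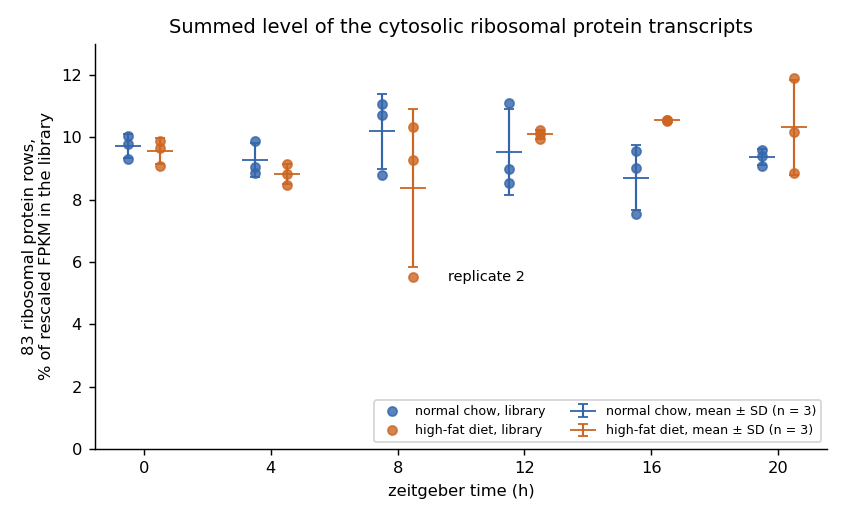
Summed level of the 83 members as a percentage of rescaled FPKM in each library (points), with the mean and SD of each group of 3, against zeitgeber time, for normal chow and high-fat diet. High-fat ZT 8 replicate 2 sits at 5.53%, below every other library, and the 3 high-fat libraries at ZT 16 lie close together above the 3 chow libraries.

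The low library did not lower all members alike. Set against the mean of the other two libraries of its group, 78 of 83 members were lower in it, with a median log2 difference of −0.74. Rpl22l1, the paralog of Rpl22, stood at 1107, 180 and 950 rescaled FPKM in replicates 1 to 3, and Rps29, among the shortest small-subunit mRNAs, at 4329, 868 and 3783. The middle value is the low library in both cases, several times below its partners. Rpl4 and Rpl5, which bind the large-subunit RNA and 5S RNA respectively, ran the other way, with Rpl4 at 1080, 1234 and 954 and Rpl5 at 349, 393 and 307. The 5 members that were not lower were Rps3a1, Rpl7a, Rpl7l1, Rpl5 and Rpl4, all with transcripts of 914 nt or more. Other members of such length were clearly lower, among them Rps13 (953 nt, −1.30), Rps16 (1109 nt, −1.29) and Rps20 (3706 nt, −1.21). Rps24, at 525 nt, was hardly lower (−0.05).

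Across the 82 members with a transcript length (median of the protein-coding transcripts in GENCODE for GRCm38), the log2 difference in this library correlated with log2 length at Pearson r = 0.455 and Spearman rho = 0.548. These are correlations across genes of one library, which are not independent, and are given as a description. The 28 members under 600 nt had a median difference of −1.10, the 39 members of 600 to under 1000 nt −0.55 and the 13 members of 1000 to under 2000 nt −0.41. Rows that are not members showed a gradient of the same direction, from −0.20 under 600 nt (513 rows) through −0.02, 0.12 and 0.32 to 0.40 at 4000 nt or more (2524 rows). In each of the 4 classes that held members, the member median lay below that of the other rows. Mitochondrial ribosomal protein genes summed to 4408 rescaled FPKM in this library, the lowest of the 36, while the neuronal list (6836) and the astrocyte list (3832) were at their highest and the SCN list (303) at its lowest. The part of tissue content, RNA quality or library preparation in the low values was not tested. A length gradient was not confined to the low library. From under 600 nt to 4000 nt or more, non-member medians ran from 0.06 to −0.49 in high-fat ZT 20 replicate 3. In chow ZT 16 replicate 2 they ran from −0.04 to 0.12, each library set against the others of its group. For the diet change they ran from 0.05 to −0.20 at ZT 20 and from 0.02 to 0.004 at ZT 16.

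**Figure D2:**
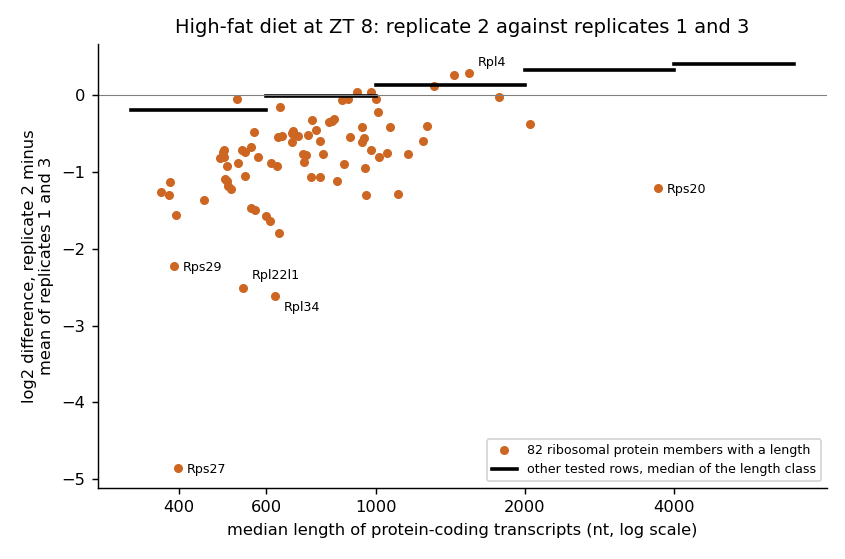
Log2 difference of each member between high-fat ZT 8 replicate 2 and the mean of replicates 1 and 3, against median transcript length (log axis). Black bars are medians of all other tested rows in 5 length classes, of which the outer ones are open-ended, rising from −0.20 to 0.40. The members lie mostly below the bars, and the 5 members above 0 have transcripts of 914 nt or more, as do several members well below 0.

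Among large-subunit members the acidic stalk, which recruits elongation factors, was uneven. Rplp1 (chromosome 9, 61913284 to 61914542, minus strand, GRCm38) had the highest mean of all members, 4068 ± 581 rescaled FPKM (SD, n = 36). Its partner Rplp2 (chromosome 7) stood at 1350 ± 182 and Rplp0 (chromosome 5), the protein that anchors both to the ribosome, at 414 ± 35.5. In the assembled stalk Rplp1 and Rplp2 are present in equal numbers, whereas their mRNA levels per length differed about as much as 4068 and 1350. Rplp1 ran from 3065 through a median of 4049 to 4650 under chow and from 1849 through 4184 to 5372 under high-fat diet, its lowest value being high-fat ZT 8 replicate 2. Rpl38, which has been linked to the translation of Hox mRNAs in mouse embryos, followed at 3156 ± 469.

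In the small subunit, Rps29 (3946 ± 718), Rps21 (2840 ± 519) and Rps15 (2777 ± 331) were highest. Rps29 ran from 2705 to 4703 under chow and from 868 to 5389 under high-fat diet. Of the genes whose proteins are made as fusions with ubiquitin or a ubiquitin-like protein, Rps27a stood at 1360 ± 192 and Fau at 1262 ± 164 (SD, n = 36). Rps6 (chromosome 4, 86854660 to 86857412, minus strand) stood at 803 ± 63.9 and Rpsa, which is also known as the laminin receptor, at 860 ± 99.2. Over all 83 members the median of the mean levels was 1029, 45 members had a mean over 1000, and 6 were under 100.

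The 5 lowest members were Rpl26 (22.2 ± 11.4), Rpl7l1 (45.3 ± 2.30), Rpl30 (51.1 ± 13.8), Rps4l (77.6 ± 12.3) and Rpl34 (87.1 ± 26.8; SD, n = 36 for each). Of these, Rpl34 has a near copy with a row of its own. Rpl34-ps1, named as a pseudogene of Rpl34, stood at 1439 ± 259. The sum of Rpl34 and Rpl34-ps1 ranged from 563 in the low library, and from 1144 in the others, to 2014, with a log2 SD of 0.31 against 0.58 for Rpl34 alone. Most of this sum was Rpl34-ps1 (median 1441 against 84.6), so its SD mostly follows the copy and does not show how reads were shared. How the authors' counting shared reads between such copies is not given in the sources used here, so the levels of Rpl34 and of other members with near copies, among them Rps27, are uncertain. No row is named as a pseudogene of Rpl26 or Rpl30, and whether read sharing bears on their low levels was not tested.

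Rps27 (chromosome 3, 90212522 to 90213651, minus strand), whose protein carries a zinc finger, varied most of all members. Its values ranged from 15.4 to 3714 rescaled FPKM, a log2 SD of 2.40 over 36 libraries, and 8 libraries were under 100. At chow ZT 8 it stood at 2255, 22.0 and 606 in the 3 libraries, and at high-fat ZT 4 at 227, 2958 and 23.8. Libraries of one group thus differed by far more than the diets did. Rps27rt, a retrotransposed copy with its own row, ranged from 579 to 4559, and the sum of both rows ranged from 1362 in the low library, or 2524 in the others, to 4696. The log2 SD of the sum was 0.31, so most of the spread of Rps27 lay in the division between the copies. No direction is read from Rps27 alone. For Rpl14, Rpl31 and Rpl37, whose copies Rpl14-ps1, Rpl31-ps12 and Rpl37rt had medians of 56.0, 161 and 68.7, adding the copy hardly moved the log2 SD (0.13, 0.21 and 0.25 alone, and 0.13, 0.20 and 0.26 with it). These copies lay far below their genes (medians 867, 668 and 751), so adding them could move the SD only a little.

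The paralogs differed in how they compared with their partners. Rpl22l1 stood at 943 ± 184 and Rpl22 at 90.4 ± 7.91 (SD, n = 36), so in this region the "like" gene was the more abundant mRNA per length. The ratio of Rpl22l1 to Rpl22 had a median of 10.5 under chow and 10.6 under high-fat diet. It was 2.61 in the low library and between 8.47 and 13.8 in the other 35. In mice Rpl22 protein is known to repress Rpl22l1. Rpl36al stood at 0.576 of Rpl36a in the median library (0.486 to 0.689), whereas Rps4l and Rpl7l1 stood at 0.0741 of Rps4x and 0.0476 of Rpl7. The diet ranges of these ratios overlapped in every pair. The ratio of Rps27l, a p53 target in human cells, to Rps27 is not interpreted because of the copy of Rps27.

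Within groups the members moved together. The deviation of each library from its group mean correlated between members at a median Pearson r of 0.803 over all pairs (36 libraries) and 0.776 without the low library, against a median of 0.116 between members and other rows, sampled at every 10th row (1509 rows). The points share library and rescaling, so these values are a description. Rpl37 and Rpl13a were among the closest to the rest (median r 0.914 and 0.909). Subtracting each library's median member deviation lowered the median within-group SD of a member from 0.18 to 0.09 log2 units, and from 0.13 to 0.06 without the low library, and the SD fell for 72 and 77 members respectively. That median comes from the same members, so the fall restates their correlation and is no separate result.

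A few members did not follow. Rpl7l1, the relative of Rpl7, had a median r of −0.18 (0.029 without the low library). Rps4l (0.088 and 0.045) and Rps27 (0.199 and −0.005) also stood outside in both settings. Rpl4 and Rpl5 stood outside only through the low library, since leaving it out moved them from 0.067 to 0.665 and from 0.281 to 0.828. The smallest spread over 36 libraries belonged to Rpl7l1 (log2 SD 0.07), Rps15a (0.07), Rpl7, Rpl15 and Rpl7a, and the largest to Rps27, Rpl26, Rpl34, Rpl22l1 and Rpl30. For Rpl22l1 the log2 SD was 0.44 with the low library and 0.19 without it.

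**Figure D3:**
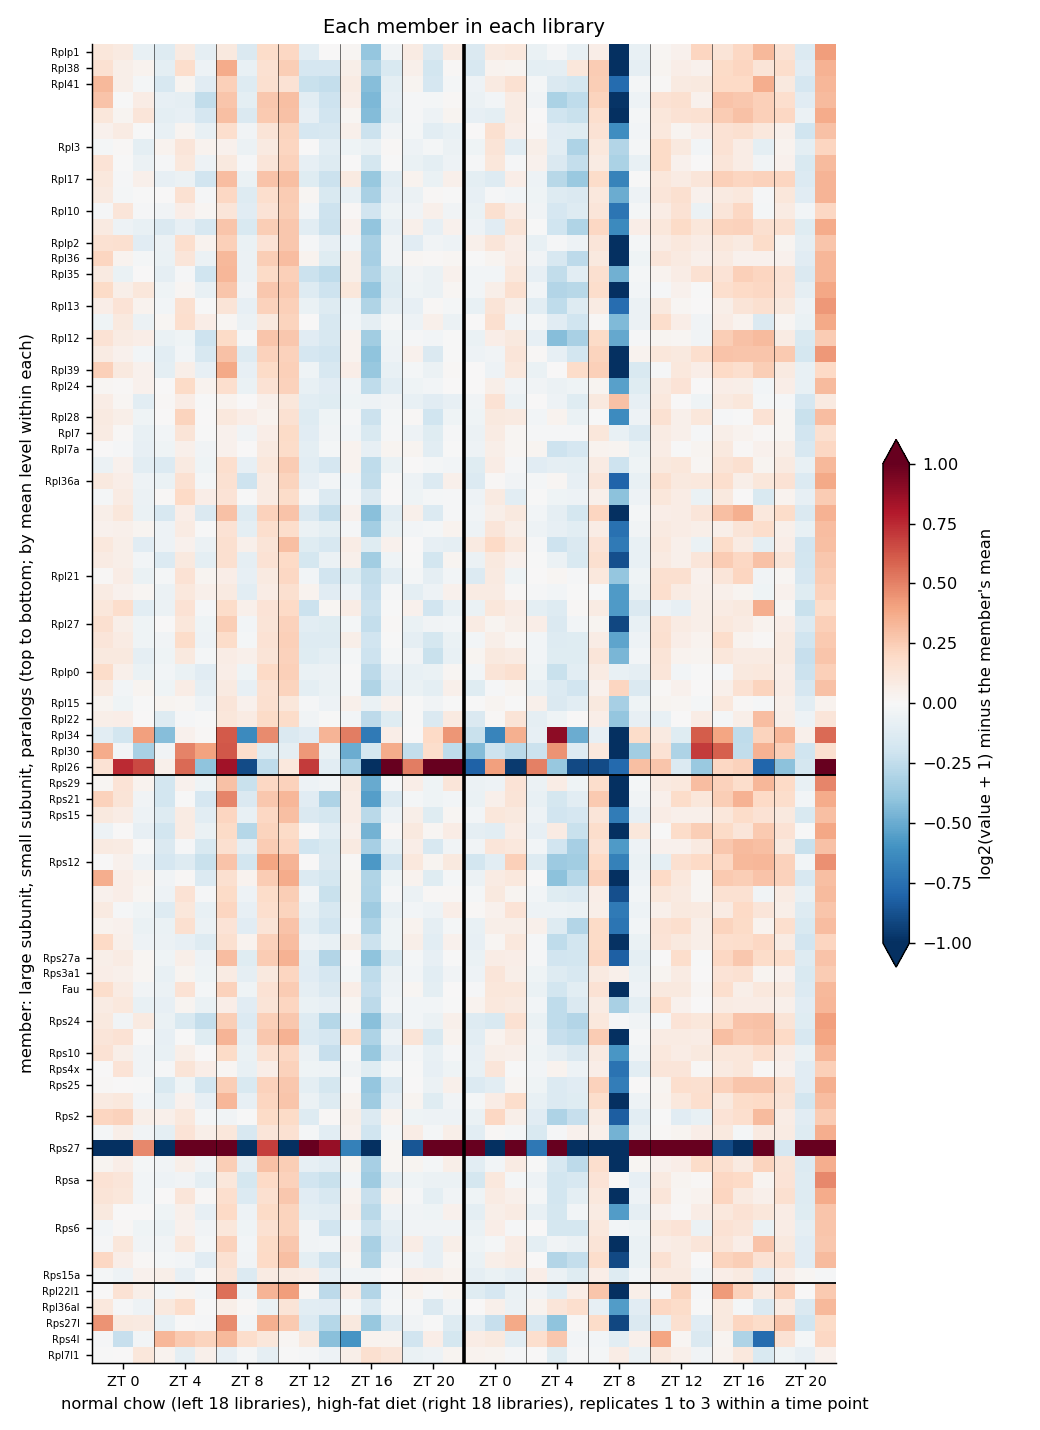
Log2(rescaled FPKM + 1) of each member minus its mean over 36 libraries, with libraries in columns by diet, time and replicate and members in rows by class and mean level, of which some are labelled. The dark blue column is high-fat ZT 8 replicate 2. Whole columns share one colour in most rows, while Rps27, Rpl26, Rpl30 and Rpl34 vary on their own.

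Whether 10 weeks of high-fat diet changed these transcripts was tested with limma on log2(rescaled FPKM + 1), with p-values adjusted over all tested rows by the Benjamini-Hochberg method and calls made at an adjusted p under 0.05. Over all time points 0 of 83 members were called, where 0.0132% of the 15173 tested rows were. At an unadjusted p under 0.05 there were also 0 members, against 2.56% of all rows. The members' log2 changes (high-fat minus chow) had a median of −0.0035, with 39 above 0, and all tested rows had a median of −5e-04 with 49.5% above 0. Without the low library the median was 0.04 with 74 of 83 above 0 (38.5% of all rows), and 2 members, Rpl37a (0.13 ± 0.06, SE, adjusted p = 0.9995) and Rps25 (0.11 ± 0.05, the same adjusted p), passed the unadjusted threshold, against 2.92% of all rows.

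The members with the smallest p in this comparison were Rpl26, Rps24 and Rpsa. Rpl26, which contacts the p53 mRNA in human cells, ran from 3.23 through a median of 24.97 to 53.1 under chow and from 9.59 through 16.0 to 40.9 under high-fat diet. The high-fat range lay inside the chow range, and the log2 change was −0.41 ± 0.23 (SE, adjusted p = 1). Rps24 ran from 874 through 1128 to 1403 under chow and from 954 through 1207 to 1552 under high-fat diet, which overlap for most of their length (0.08 ± 0.06, adjusted p = 1). For Rpsa the log2 change was 0.07 ± 0.05 (adjusted p = 1). Rpl30, Rpl22l1, Rpl34 and Rpl36 had the other most negative changes, and Rps27, Rps25 and Rpl41 the other most positive ones, and none passed the unadjusted threshold. The Rpl22l1 value turned from −0.11 ± 0.15 to 0.03 ± 0.06 without the low library.

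Taken time point by time point, members mostly shared a direction from ZT 4 on and were more evenly split at ZT 0. At ZT 0 the median log2 change was −0.02 with 29 of 83 above 0 (47.1% of all tested rows), at ZT 4 −0.09 with 7 above 0 (63.9% of all rows), and at ZT 8 −0.30 with 2 above 0 (70.8%). At ZT 12 it was 0.07 with 76 above 0 (41.2%), at ZT 16 0.25 with 81 above 0 (44.6%), and at ZT 20 0.12 with 81 above 0 (35.4%). Single libraries moved several of these medians. The ZT 0 median turned to 0.01 without high-fat replicate 1 and to 0.0022 without chow replicate 1. The ZT 12 median turned to −0.0021 without chow replicate 3 and rose to 0.18 without chow replicate 1. The ZT 20 median was 0.02 without high-fat replicate 3 and 0.24 without high-fat replicate 2. Since members move together within a library, such a count of signs follows a few libraries and is no measure of 83 separate results. No member was called at any time point, with 0% of all tested rows called at ZT 0, 4, 8, 16 and 20 and 0.00659% at ZT 12. The unadjusted threshold was passed by 0 members at ZT 0 (3.90% of all rows), ZT 4 (1.50%), ZT 12 (0.975%) and ZT 20 (3.99%).

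**Figure D4:**
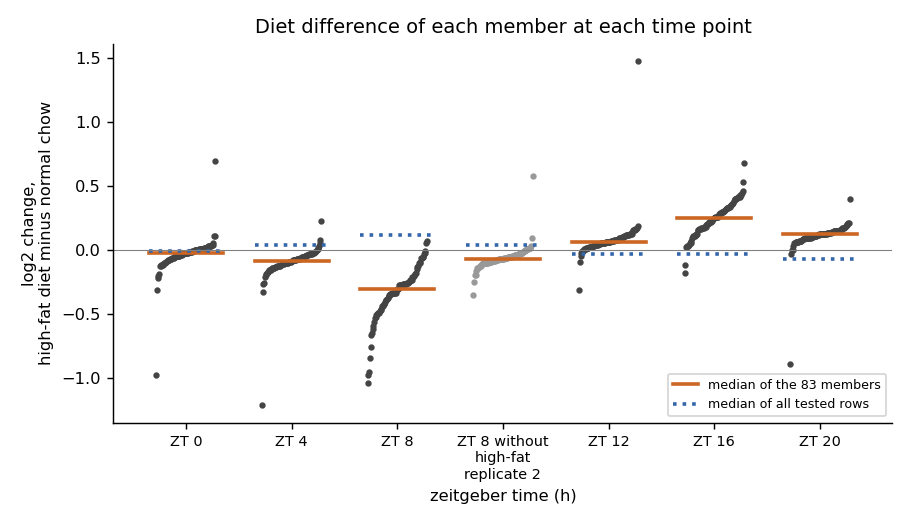
Log2 change of each member, high-fat minus chow, at each zeitgeber time, sorted within a time point (points), with the median of the 83 members (solid bar) and of all tested rows (dotted bar). The member median runs from −0.30 at ZT 8, or −0.06 without high-fat replicate 2, to 0.25 at ZT 16.

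At ZT 8, 47 members were lower under high-fat diet at an unadjusted p under 0.05, against 5.25% of all rows in that direction, and 0 were called (smallest adjusted p 0.273). Rpl27 (−0.43 ± 0.15, SE) and Rpl36 (−0.52 ± 0.18) had the smallest p. The low library carried this: without it the count was 0 (1.11% of all rows lower), the median was −0.06, and Rpl27 stood at −0.14 ± 0.10. Leaving out high-fat replicate 1 at ZT 8 instead, which gave the low library more weight in its group, raised the number of called members to 40 (smallest adjusted p 0.035). The share of all rows called in that setting is not given here, so the 40 are not read as particular to the members. All tested rows had a median of 0.12 at ZT 8, so the member shift relative to the rest was larger than the shift itself. Only 4 members had all 3 high-fat libraries below all 3 chow libraries (3.16% of all rows).

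At ZT 16 the members lay higher under high-fat diet. Their summed share was 9.58%, 7.54% and 9.02% in the 3 chow libraries and 10.5%, 10.6% and 10.6% in the 3 high-fat libraries, which do not overlap. For 58 members (69.9%) all 3 high-fat libraries were above all 3 chow libraries, against 5.05% of all rows. The unadjusted threshold was passed by 20 members, all higher, against 2.58% of all rows in that direction, and 0 were called (smallest adjusted p 0.285).

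Rps24 (chromosome 14, 24487125 to 24496959, plus strand), a small-subunit protein needed for maturation of the small ribosomal RNA and mutated in Diamond-Blackfan anaemia in humans, had the smallest p at ZT 16. It stood at 1146, 874 and 1058 under chow and 1322, 1423 and 1429 under high-fat diet, with no overlap (0.45 ± 0.13, SE, adjusted p = 0.285). Rps12 (chromosome 10, 23785183 to 23787275, minus strand), which acts in cell competition in Drosophila, stood at 1778, 1185 and 1543 against 2036, 2206 and 2216 (0.54 ± 0.18, adjusted p = 0.301). Rpl12, a protein at the base of the stalk, stood at 1223, 941 and 1160 against 1420, 1463 and 1487 (0.40 ± 0.14, adjusted p = 0.301). In all 3 genes the middle chow value, from replicate 2, was the lowest.

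All 46 large-subunit genes had a log2 change above 0 at ZT 16 (median 0.22), as did all 32 small-subunit genes (median 0.28), and 3 of the 5 paralogs (median 0.04). The result depended on 1 chow library in size: without chow ZT 16 replicate 2 the median was 0.16 and 1 member passed the unadjusted threshold. Without high-fat ZT 8 replicate 2, which changes only the estimate of the spread here, 46 members passed (3.53% of all rows higher) and 0 were called (smallest adjusted p 0.154). High-fat ZT 16 replicate 3 stood apart in tissue markers, with summed striatal markers of 1585 rescaled FPKM, against 83.2 and 236 in the other two of its group, and liver markers of 259 against 51.5 and 151. Without it the median was 0.24, 12 members passed the unadjusted threshold and 0 were called. The share of all rows passing without chow replicate 2, or without high-fat replicate 3, is not given here. The counts of 1 and 12 members are therefore not set against a background. Some cell type markers also separated at ZT 16. Summed neuronal markers (10 genes) were 5594 to 6710 rescaled FPKM under chow and 4963 to 5526 under high-fat diet, and SCN markers (10 genes) 1566 to 2096 and 798 to 1100. Astrocyte markers (8 genes) were 2278 to 3025 under chow and 3303 to 3653 under high-fat diet. Microglial markers (8 genes) overlapped (376 to 506 and 492 to 637), as did those of oligodendrocytes, their precursors and endothelial and mural cells. In the astrocyte and the microglial list 8 of 8 log2 changes were above 0, against 44.6% of all tested rows. No marker of these lists was at 0 in any library, and their part in the member values was not tested.

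Whether the diet difference itself varied over the day was tested with the 5 diet by time point terms. No member was called (0% of all rows), and 3 passed the unadjusted threshold, Rpl22, Rpl12 and Rps12 (3.61%, against 5.09% of all rows). Their adjusted p was 0.720. Without the low library 4 passed (4.83% of all rows), Rps2, Rpl12, Rpl13 and Rpl35a. Leaving out single libraries moved the count from 0 to 56, the highest without high-fat ZT 8 replicate 1, and the smallest adjusted p over all alternatives was 0.360. The share of all rows passing in those settings is not given here.

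A daily rhythm of period 24 h was then fitted in each diet. Under chow the members were nearly flat: 0 were called (0.845% of tested rows) and 2 passed the unadjusted threshold (18.2% of all rows). The median fitted peak-to-trough fold was 1.09, against 1.14 for all tested rows. Fitted peaks had a median of ZT 5.51, with 51 of 83 between ZT 0 and ZT 6 and 28 between ZT 6 and ZT 12.

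Rps4l, named as a paralog of the X-linked Rps4x and without a protein-coding transcript in the GENCODE annotation used, had the smallest p under chow. Its 3 values were 75.8, 65.2 and 75.3 at ZT 0, 96.6, 92.1 and 89.7 at ZT 4 and 96.2, 86.5 and 82.8 at ZT 8. They were 77.7, 82.2 and 57.0 at ZT 12, 50.7, 78.4 and 78.6 at ZT 16 and 67.1, 80.2 and 67.6 at ZT 20. The 6 libraries of ZT 4 and ZT 8 thus lay above the other 12 (1.35-fold, peak ZT 5.53, adjusted p = 0.164). Rps4l was also the 1 member that passed the unadjusted threshold with both diets fitted together (1.26-fold, peak ZT 4.74, adjusted p = 0.182), where 13.1% of all rows passed it, 0 members were called and 2.18% of all rows were. Rpl28, Rpl24, Rpl21 and Rpl36al followed under chow with folds of 1.10 to 1.14, of which Rpl28 passed the unadjusted threshold.

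In the high-fat fits the median fold was larger and the peaks lay at another time of day, with no member called in either diet. The median fold was 1.26, against 1.15 for all tested rows, and the median peak was ZT 17.9, with 81 of 83 peaks between ZT 12 and ZT 24. Since members move together within a library, the peak counts of both diets follow a few libraries. They are no measure of 83 separate results. No member was called (0.0728% of tested rows), and 17 passed the unadjusted threshold (20.5%, against 8.64% of all rows). The low library sits at ZT 8, near the fitted trough. Without it the median fold was 1.15 (1.12 for all rows), the median peak ZT 16.1, and 35 members passed (42.2%, against 8.06%), with 0 called (0.0530% of all rows).

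Rps12 had the smallest p of the members under this diet, with group means of 1761 ± 284 at ZT 0, 1458 ± 137 at ZT 4, 1605 ± 468 at ZT 8, 1884 ± 202 at ZT 12, 2153 ± 101 at ZT 16 and 2074 ± 343 at ZT 20 (SD, n = 3 each). The fitted fold was 1.49 with a peak at ZT 17.2 (adjusted p = 0.362), and 1.40 at ZT 16.5 without the low library (adjusted p = 0.335). Under chow its group means were 1764 ± 55.5, 1563 ± 49.7, 2005 ± 404, 1866 ± 334, 1502 ± 298 and 1862 ± 52.7 in the same order of times, so ZT 16 was its lowest chow group and its highest high-fat group. Rps24 (1.31-fold, peak ZT 16.0), Rpl12 (1.36-fold, ZT 17.0), Rpl17 (1.38-fold, ZT 16.7) and Rps2 (1.37-fold, ZT 18.5) had the next smallest p, with adjusted p from 0.370 to 0.489.

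**Figure D5:**
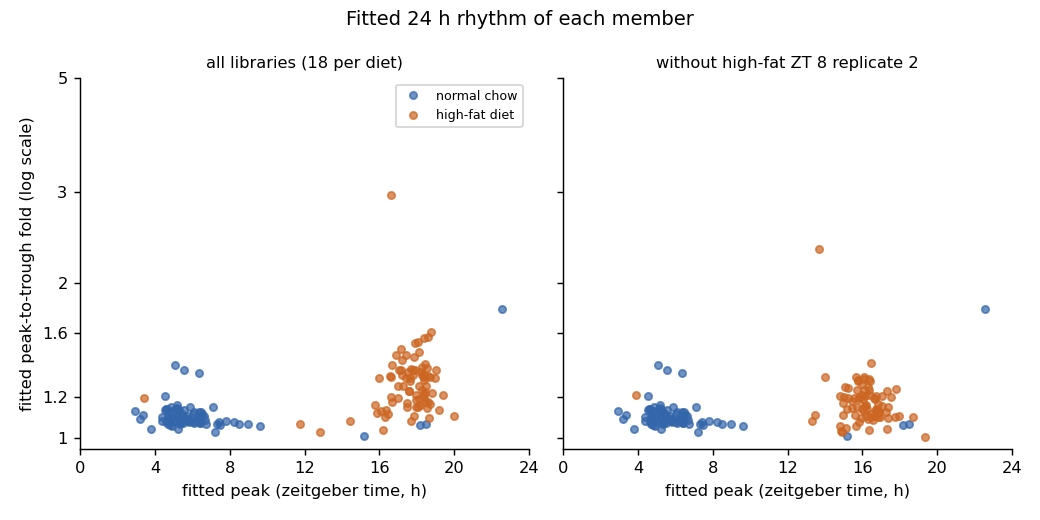
Fitted peak time (zeitgeber time) and peak-to-trough fold (log axis) of each member under normal chow and high-fat diet, with all libraries and without high-fat ZT 8 replicate 2. Chow peaks gather around ZT 5.51 and high-fat peaks around ZT 17.9 or, without that library, ZT 16.1; the most distant points are Rps27 and Rpl26.

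Whether the fitted rhythm itself depended on diet was tested in all 36 libraries, by the interaction of diet with the cosine and sine. No member was called (0% of all rows, smallest adjusted p 0.357), so the opposite peak times are not established for any single member. The unadjusted threshold was passed by 41 members (49.4%, against 13.2% of all rows), and by 43 (51.8%, against 8.91%) without the low library, where the smallest adjusted p was 0.555. Rpl13, Rps2, Rps10, Rpl12 and Rpl24 had the smallest p. For Rpl13 the 3 chow values were 1256, 1323 and 1231 at ZT 0 and 1171, 975 and 1130 at ZT 16, and the high-fat values 1142, 1316 and 1253 at ZT 0 and 1255, 1312 and 1345 at ZT 16. The diets thus overlapped at ZT 0 and did not at ZT 16.

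Other genes of protein synthesis were described by lists chosen for their function. The mitochondrial ribosomal proteins, which build the separate ribosome of mitochondria, were 76 rows. None was called for diet over all time points, 17 were above 0 and the median log2 change was −0.02. At ZT 16, where the cytosolic members had a median of 0.25, the mitochondrial ones had −0.11 with 12 of 76 above 0 and 16 lower at an unadjusted p under 0.05, against 8.17% of all rows lower. Their rhythm differed between diets at the unadjusted threshold in 5 of 76, against 13.2% of all rows.

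Of 42 translation factors and other mRNAs, many of them known to carry a TOP start, 0 were called for diet and 5 were lower at the unadjusted threshold (1.48% of all rows lower), the one with the smallest p being Eif3e, a subunit of an initiation factor (−0.09 ± 0.03, SE, adjusted p = 1). At ZT 16 their median was −0.06 with 13 above 0, on the other side of 0 from the ribosomal proteins. Of 46 ribosome biogenesis and RNA polymerase I genes none was called for diet (median −0.0042), and 8 were above 0 at ZT 16 (median −0.10). Of 25 genes of the mTOR pathway and TOP mRNA control none was called for diet (median −0.03). With both diets fitted together 1 of them was called rhythmic, Akt1s1, which encodes the mTOR inhibitor PRAS40 (1.16-fold, peak ZT 21.8, adjusted p = 0.00473), against 2.18% of all rows.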

How the data were processed

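RNA of the SCN-enriched region was sequenced in 36 libraries by the Illumina TruSeq stranded mRNA method, per the labels. Trimmomatic, TopHat and Cufflinks, with builds mm10 and GRCm38, are named without versions or options, per the submitters' processing notes. The deposited values are FPKM, made by the authors, in a table for each diet. This unit is inferred from the values and the tool, since the headers name none, and zeitgeber time is per the file headers. Depth in reads is unknown, so no counting interval was computed.

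Each library was rescaled to sum to 1000000 and transformed as log2(value + 1), which understates changes of low genes. Rows with a mean of at least 1 were tested with limma 3.58.1 (trend) in R 4.3.3: diet with time point as factor, 6 contrasts of 12 group means, diet by time point, and a 24 h cosine and sine. Tests were two-sided, with Benjamini-Hochberg adjustment over all tested rows. The script was tested on simulated data. Genes named are those with the smallest p or most extreme change, level or spread, plus stalk members, ubiquitin fusions and paralogs; a few others, such as Rpl4, Rpl5 and Rpl37a, were chosen after their values were seen. Members and lists were chosen with earlier results of these data known. Coordinates and lengths come from GENCODE on GRCm38, start windows from RefSeq GRCm38.p6. Some genes are not reported here.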

Additional observations from a re-analysis of the deposited data

How the results depend on the processing

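No member was called in any of the 12 tests under other pseudocounts, filters, scalings, without the trend, or without libraries rich in liver or striatal markers. Leaving out single libraries also gave 0 called members, except at ZT 8, where the count ranged from 0 to 40, the highest without high-fat replicate 1. Whether replicate numbers paired the libraries was not settled. Correlations of deviations over 18 same-numbered pairs ran from −0.276 to 0.319, 9 exceeded 0.1, and those at ZT 12 ran from 0.285 to 0.319. No differently numbered pairs are given beside them. With the replicate block 0 members were called in every test, and 18 rather than 3 passed the unadjusted threshold for diet by time point. In deposited FPKM the median member sum per library was 35736, against 95906 after rescaling. Unadjusted counts moved more. These counts, with those of the replicate block, are given without the share of all rows passing in the same setting. They describe only how far the counts moved. At ZT 16 they ran from 0 to 23 over the settings and from 1 to 46 over libraries left out, and the median log2 change stayed between 0.16 and 0.31. For the rhythm difference they ran from 21 to 55 and from 20 to 68, and for the high-fat rhythm from 2 to 22 and from 9 to 39. For diet by time point they ran from 0 to 18 and from 0 to 56. The ZT 0 median changed sign as deposited (0.04) and without liver-rich libraries (0.02), and the ZT 12 median without striatum-rich libraries (−0.0021). The cause was not tested. With 3 libraries per group and unknown depth, differences of the size seen at ZT 16 did not pass the adjusted threshold.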
